A study of Mus musculus with 10 samples.

Results

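Glucocorticoid receptor target genes were examined in mouse preadipocytes given bisphenol S (BPS), an analogue of the plastic monomer bisphenol A. The 7 genes were listed by name: Fkbp5, Tsc22d3, Sgk1, Klf9, Zbtb16 and Angptl4, which glucocorticoids induce, and Hsd11b1, which supplies the hormone inside the cell. They are 7 of the 32903 genes to which transcripts could be assigned, and 6 of the 14597 genes with enough counts to be tested. All cells were preadipocytes, which can become fat cells, taken from inguinal subcutaneous adipose tissue (iSAT) of male mice of genotype WT C57 BL6. The 10 RNA sequencing libraries were 5 of cells with the vehicle DMSO alone and 5 of cells with 2.5 µM BPS in DMSO. The length of the exposure, the steroid content of the medium and the number of animals behind the replicates were not given in the sources used here, so p-values measure the spread between these samples, which may be technical.

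Glucocorticoids such as corticosterone enter the cell and bind the glucocorticoid receptor, which is held ready by a chaperone complex and then moves to the nucleus. There it binds DNA as a pair of receptor molecules at palindromic glucocorticoid response elements and raises transcription of its target genes, while it lowers that of many inflammatory genes. In preadipocytes glucocorticoids promote differentiation into fat cells, and a synthetic glucocorticoid is part of the usual differentiation cocktail.

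The DMSO libraries held 38200573 to 42314795 estimated counts each, and the BPS libraries held 37920689 to 42717227. Preadipocyte markers were expressed, with a summed level of 4649 to 4745 CPM (the usual count scaled by the library's effective total as edgeR gives it) in DMSO and 4788 to 4900 CPM in BPS over 10 genes. Of these 3 rose, Cd34, Thy1 and Itgb1 (30%, against 3.06% of all genes higher), and 0 fell, with Pdgfra at a log2 fold change of -0.07 (unadjusted p 0.00532, edgeR adjusted p 0.0777). By sign 5 were higher and 5 lower, with a median of -0.000355. Their levels were uneven, with DMSO means from 2.02 CPM for Pi16 and 2.45 CPM for Dpp4 to 1610 CPM for Itgb1. The summed level of 6 markers of mature adipocytes was at most 0.228 CPM in any library, with Adipoq at a mean of 0.0472 CPM under DMSO and 0.0389 CPM under BPS, and Lep at 0 CPM throughout. Mural cell markers summed to 61.7 to 65.9 CPM in DMSO and to 68.8 to 81.3 CPM in BPS over 5 genes. Of these 2 rose, Mcam and Cspg4 (40%, against 3.06% of all genes higher). Rgs5, Kcnj8 and Abcc9 were higher by sign but did not pass (adjusted p of 0.6, 0.746 and 0.936 by edgeR). Of the 5 mesothelial markers 2 were tested, of which Krt19 rose (log2 fold change 0.27) and Wt1 was lower without passing (-0.59, unadjusted p 0.0187, edgeR adjusted p 0.155). They had summed levels of 9.055 to 11.02 CPM in DMSO and 10.99 to 12.9 CPM in BPS, and Msln and Upk3b were at 0 CPM. Macrophage markers summed to 9.41 to 15.3 CPM in DMSO and 10.3 to 18.2 CPM in BPS, with Csf1r at 0 CPM, and endothelial markers to 7.37 to 11.6 CPM and 7.35 to 11.2 CPM. Of the 4 macrophage and 5 endothelial genes tested, 0 were called by edgeR and 0 had an unadjusted p under 0.05. The part of other cells in the results that follow was not tested, and fewer cells of a type cannot be told apart from less RNA per cell. The library codes in the labels run through the DMSO libraries before the BPS libraries, so a batch following that order and the treatment cannot be told apart.

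The response element was looked for in the 250 bases before each RefSeq transcription start of these genes for which a window was at hand (assembly GRCm38.p6). Windows were found for 5 of the 7 genes, 12 windows in all. The letters searched, on both strands, were the arm AGAACA, which reads TGTTCT on the other strand, and the full palindrome of AGAACA, any 3 bases and TGTTCT. The full palindrome contains the arm on both strands, so each full match also counts as an arm match. The full palindrome was present in 3 of 32851 windows of all genes (0.00913%), and 1 of these belonged to Sgk1. The arm was present in 5284 windows (16.1%), and in 4 of the 12 windows here. The sequences shown are those of the Sgk1 start with the palindrome, the start of the most abundant Sgk1 transcript, the far upstream start of Tsc22d3, and Klf9, the target gene called by edgeR. Capitals mark matches to either search, and a match is not evidence of binding.
Sgk1, chr10:21993640-21993889, plus strand: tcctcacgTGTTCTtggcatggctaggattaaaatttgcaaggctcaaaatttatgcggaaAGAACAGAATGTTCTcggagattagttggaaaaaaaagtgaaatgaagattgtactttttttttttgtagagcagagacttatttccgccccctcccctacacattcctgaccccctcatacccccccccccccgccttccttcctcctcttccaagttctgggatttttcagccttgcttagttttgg
Sgk1, chr10:21994416-21994665, plus strand: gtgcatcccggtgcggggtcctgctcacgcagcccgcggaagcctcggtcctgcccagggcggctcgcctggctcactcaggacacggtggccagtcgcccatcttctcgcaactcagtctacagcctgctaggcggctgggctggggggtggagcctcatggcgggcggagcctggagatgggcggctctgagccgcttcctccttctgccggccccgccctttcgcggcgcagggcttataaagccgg
Tsc22d3, chrX:140600523-140600772, minus strand: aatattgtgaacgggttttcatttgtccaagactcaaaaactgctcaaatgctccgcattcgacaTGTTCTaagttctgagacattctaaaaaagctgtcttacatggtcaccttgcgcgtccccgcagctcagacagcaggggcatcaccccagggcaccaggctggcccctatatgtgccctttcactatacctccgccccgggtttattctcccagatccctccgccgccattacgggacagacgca
Klf9, chr19:23140976-23141225, plus strand: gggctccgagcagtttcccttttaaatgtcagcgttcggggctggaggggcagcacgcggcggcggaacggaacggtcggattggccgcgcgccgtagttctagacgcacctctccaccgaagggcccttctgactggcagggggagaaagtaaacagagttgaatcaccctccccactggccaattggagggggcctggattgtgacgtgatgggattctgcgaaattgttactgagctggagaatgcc
In the first Sgk1 window the palindrome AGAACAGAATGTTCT began 189 bases before the start, and a separate arm began 242 bases before it. The start belongs to transcript NM_001161850.2. The start of the most abundant transcript, NM_011361.3, lies 776 bases downstream, so the palindrome stands 965 bases before that one and outside its window. In the Tsc22d3 window an arm began 185 bases before the start. No Tsc22d3 transcript matched to GENCODE starts within 100 bases of that start. The matched start of NM_001077364.1, at position 140600659, lies inside the window, and the arm stands upstream of it. The start of NM_010286.4, which held most of the gene's counts, had no window, so the bases before it were not searched. Neither motif was present in the windows of Fkbp5, Klf9 and Hsd11b1, which says only that these letters are not in these 250 bases. The Hsd11b1 window lies downstream of both Hsd11b1 starts matched to GENCODE, so the bases before those starts were not searched.

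Differences between BPS and DMSO in the tested target genes ran from -17.5% to 8.04%, in both directions. The lower end is that of Hsd11b1, which was near the limit of detection, and Klf9 was next at -6.3%. Of the 6 tested, 1 fell, Klf9, and 0 rose, by edgeR's quasi-likelihood test at an adjusted p under 0.05 over all genes (16.7%, against 4.88% of all genes tested, 1.82% lower and 3.06% higher). At an unadjusted p under 0.05 they were 4 of 6, with Fkbp5 and Tsc22d3 higher and Klf9 and Angptl4 lower, against 18.8% of all genes. The median log2 fold change of the 6 was -0.04, against 0.000393 for all genes, and the median size of the change was 0.09, against 0.06. The groups did not overlap for 2 of the 6, Tsc22d3 and Klf9, against 6.9% of all genes tested. DESeq2 called 2 of the 6 and limma-voom 1. The call for Klf9 was lost in 6 of its 17 gene-level alternatives. Among these, edgeR gave an adjusted p of 0.0704 without DMSO replicate 2, 0.0541 without DMSO replicate 4, 0.0644 without BPS replicate 3 and 0.057 without BPS replicate 4, and each left 0 called target genes. Tested as a transcript among all transcripts, Klf9 had an adjusted p of 0.166 by edgeR.

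**Figure D1:**
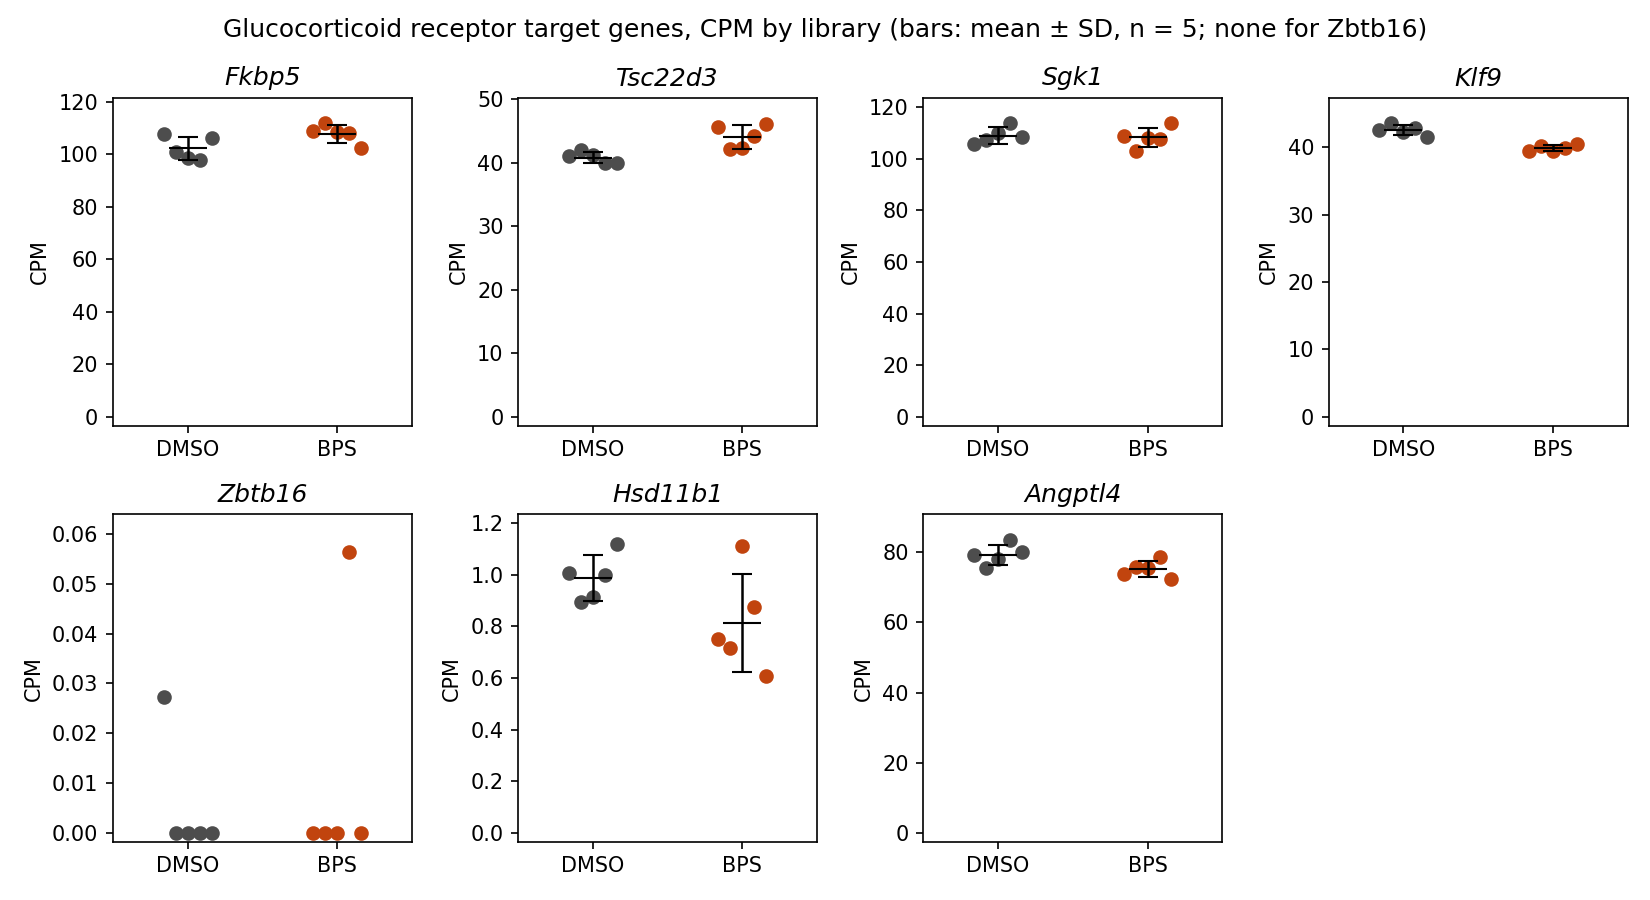
CPM (vertical axis, from 0) of the 7 target genes in the 5 DMSO and 5 BPS libraries, 1 point per library, with mean and SD as bars. The groups do not overlap for Klf9, with all BPS values between 39.4 and 40.5 CPM, or for Tsc22d3, with all BPS values at 42.2 CPM or above. Zbtb16 has no bars because it had at most 2 counts in any library.

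Fkbp5 encodes an immunophilin that joins the receptor's chaperone complex and lowers its affinity for hormone, so that its induction is a negative feedback on the receptor. Its DMSO libraries, replicates 1 to 5, had 107.5, 100.7, 98.7, 97.9 and 106.1 CPM, and its BPS libraries had 108.7, 111.7, 108.3, 108.1 and 102.2 CPM. Of the BPS libraries 4 exceeded every DMSO library, and BPS replicate 5 lay within the DMSO range. The mean was 5.52% higher (95% interval 0.606% to 10.7%), or 0.08 on the log2 scale (SE 0.03). In edgeR this missed the threshold, at an adjusted p of 0.205, and it was positive in all 18 alternatives, which gave adjusted p of 0.112 to 0.363.

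Tsc22d3 encodes GILZ, a leucine zipper protein that carries part of the anti-inflammatory action of glucocorticoids and opposes adipogenesis. The DMSO libraries had 41.0, 42.0, 41.2, 39.9 and 40.0 CPM, and the BPS libraries 45.6, 42.2, 42.3, 44.2 and 46.2 CPM. The groups did not overlap, although DMSO replicate 2 (41.95 CPM) and BPS replicate 2 (42.17 CPM) lay next to each other. The log2 fold change of 0.11 (SE 0.03) corresponded to 8.04% more (95% interval 3.14% to 13.2%). In edgeR its adjusted p of 0.0613 missed the threshold. The DESeq2 Wald test put it on the other side, with an adjusted p of 0.0447.

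The Tsc22d3 counts were divided among 8 RefSeq transcripts, and the estimates differed in sign. CPM of single transcripts are relative to all transcripts, so they sum to slightly less than the gene's CPM. NM_010286.4, with 72.3% of the gene's counts in DMSO and 78.6% in BPS, had 29.1, 27.6, 28.1, 25.8 and 27.2 CPM in the DMSO libraries and 31.3, 31.3, 31.5, 31.8 and 36.3 CPM in the BPS libraries. All BPS values lay above all DMSO values. The difference was 0.23 on the log2 scale (SE 0.05), with an unadjusted p of 0.00105 and an adjusted p of 0.144 by edgeR over 37588 transcripts, of which 0.335% were called. NR_122039.1, annotated as non-coding, held 22.3% in DMSO and 14.9% in BPS. It was estimated at 7.86 to 9.48 CPM in DMSO and at 9.35, 6.69, 5.75, 6.17 and 2.41 CPM in BPS, with BPS replicate 1 inside the DMSO range and the other BPS libraries below it (log2 fold change -0.49, SE 0.29, edgeR adjusted p 0.904). NM_001077364.1 rounded to 0 counts in every library. The division rests on how shared reads were assigned, and the version-exact match, which left out NM_010286.4, gave the gene a log2 fold change of -0.42 (adjusted p = 0.366 by edgeR).

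Sgk1 encodes a serine/threonine kinase that glucocorticoids and mineralocorticoids induce and that acts on ion channels and on FOXO factors. Among the target genes its mean differed least. The DMSO libraries had 105.7, 107.2, 109.9, 113.8 and 108.2 CPM and the BPS libraries 108.7, 102.9, 107.9, 107.8 and 113.7 CPM. The ranges overlapped over most of their width. The log2 scale difference was -0.01 (SE 0.03, edgeR adjusted p 0.896), with a 95% interval of -4.73% to 3.52%. NM_011361.3 carried 80.3% of the counts in DMSO and 79.3% in BPS. NM_001161850.2, whose start has the palindrome shown above, carried 6.35% and 7.4%. It stood at 6.09, 6.92, 6.49, 6.91 and 5.84 CPM in DMSO and 7.68, 9.37, 7.32, 6.90 and 6.20 CPM in BPS. Of the BPS values 3 lay above the DMSO range and 2 within it (log2 fold change 0.22, SE 0.12, edgeR adjusted p 0.869). NM_001161848.2 ran from 3.1e-05 to 15.6 CPM over the libraries of both groups, so single Sgk1 isoforms were estimated unevenly.

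**Figure D2:**
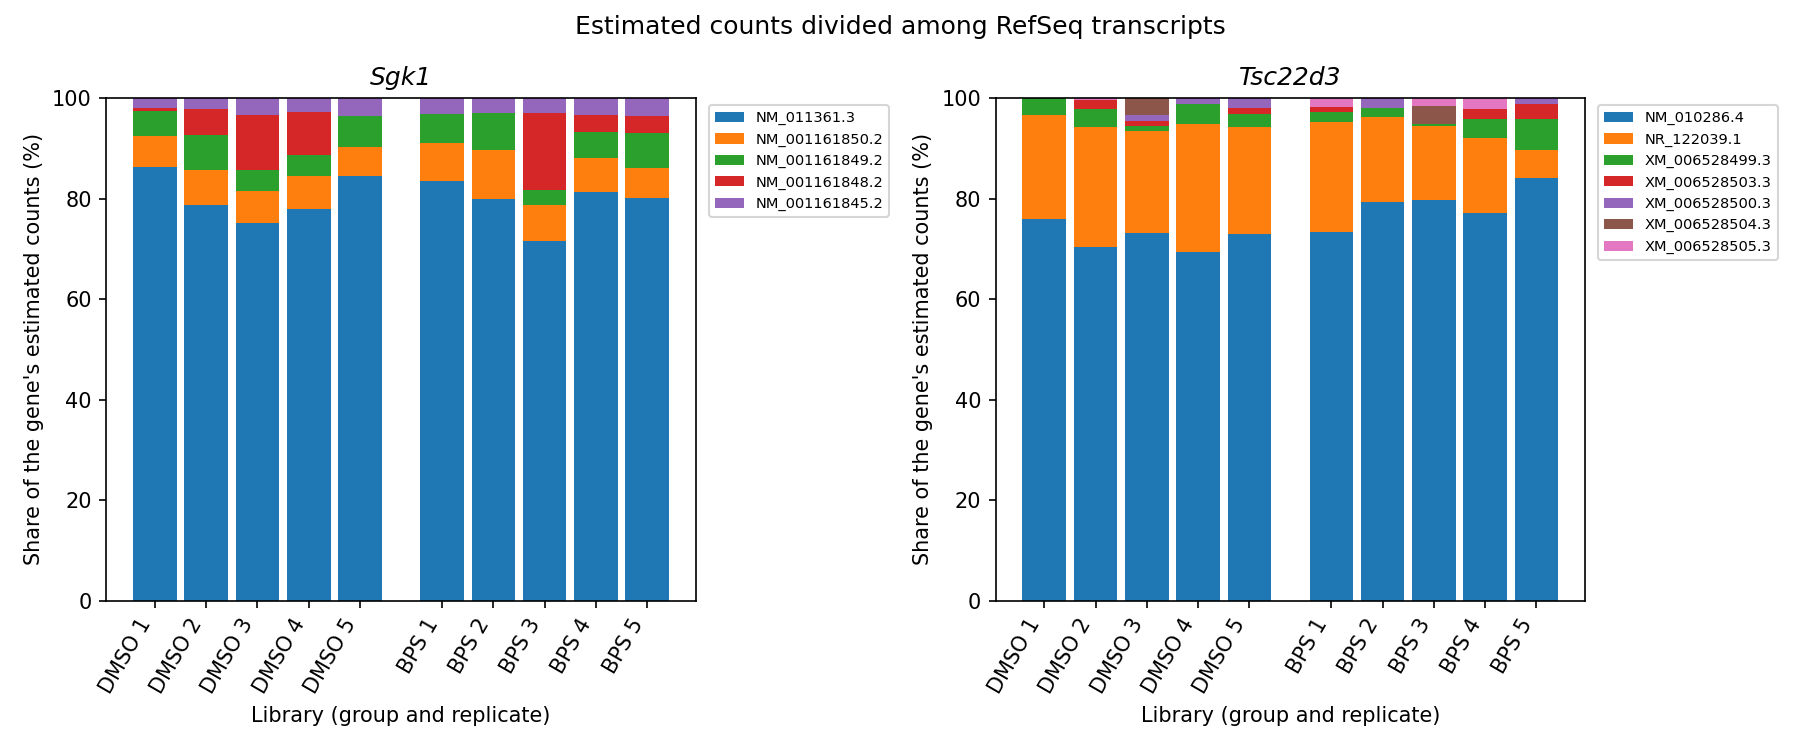
Share of each gene's estimated counts (vertical axis, %) held by each RefSeq transcript of Sgk1 and Tsc22d3, 1 stacked bar per library. NM_011361.3 holds most of Sgk1 in both groups, and NR_122039.1 falls to 5.58% of Tsc22d3 in BPS replicate 5, against 20.4% to 25.5% in the DMSO libraries.

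Klf9 encodes a Krüppel-like zinc finger factor that responds directly to glucocorticoid and thyroid hormones. The DMSO libraries had 42.5, 43.6, 42.3, 42.9 and 41.6 CPM and the BPS libraries 39.4, 40.2, 39.5, 40.0 and 40.5 CPM. Every BPS library lay below every DMSO library, and the spread was narrow, with coefficients of variation of 1.77% and 1.09%. The fall was small, with a log2 fold change of -0.09 (SE 0.02, edgeR adjusted p 0.0253), or -6.3% (95% interval -9.22% to -3.29%). It stood in place 449 of 14597 genes ordered by p. Klf9 was lower in all 17 alternatives, with log2 fold changes of -0.109 to -0.085 and adjusted p of 0.0135 to 0.0984.

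Angptl4 encodes a secreted inhibitor of lipoprotein lipase that both glucocorticoids and PPARs induce. The DMSO libraries had 79.1, 75.6, 78.0, 83.5 and 80.0 CPM and the BPS libraries 73.7, 75.7, 75.4, 78.5 and 72.3 CPM. The lowest DMSO library, replicate 2, lay within the BPS range and the groups overlapped. The log2 fold change was -0.08 (SE 0.03, edgeR adjusted p 0.176), or -5.18% (95% interval -9.32% to -0.857%), and it was negative in all 18 alternatives (adjusted p 0.105 to 0.308). Lpl, the enzyme it inhibits, named after its value was seen, had means of 521.7 ± 31.8 CPM under DMSO and 539.9 ± 37.9 CPM under BPS (SD, n = 5 each; edgeR adjusted p 0.676).

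Hsd11b1 encodes the reductase of the endoplasmic reticulum that turns inert keto-glucocorticoid into the active hormone. It was near the limit of detection, with 37, 35, 36, 38 and 40 counts in DMSO (mean 0.986 ± 0.0886 CPM, SD, n = 5) and 30, 25, 41, 31 and 22 counts in BPS (mean 0.813 ± 0.191 CPM, SD, n = 5). In CPM, 4 BPS libraries lay below every DMSO library, and BPS replicate 3 lay within the DMSO range. The log2 fold change of -0.28 (SE 0.16) did not pass (adjusted p = 0.402 by edgeR), and its 95% interval ran from -35.5% to 5.57%. That interval holds no change as well as falls of the size seen in Klf9 and Angptl4. The power to detect such changes at this depth was not tested. Zbtb16, which encodes the zinc finger repressor PLZF and is strongly induced by glucocorticoids in many cells, had 1 count in DMSO replicate 1, 2 counts in BPS replicate 4 and 0 in the other libraries. These counts are under the floor of 3, and no fold is given.

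Per length of transcript, the target genes covered a wide range in these cells. The CPM of the whole gene was divided by the length of 1 of its transcripts, as matched to GENCODE. Other transcripts held part of the counts of Sgk1, Tsc22d3 and Hsd11b1, and the transcript used for Hsd11b1 held 29.1% of its DMSO counts. By this measure Sgk1 was at 44.4 ± 1.27 CPM per kilobase in DMSO, Fkbp5 at 28.8 ± 1.23, Angptl4 at 24.0 ± 0.877, Tsc22d3 at 20.7 ± 0.436, Klf9 at 9.49 ± 0.168 and Hsd11b1 at 0.608 ± 0.0546 (SD, n = 5 each). The order in BPS was the same, with 44.1, 30.4, 22.7, 22.3, 8.90 and 0.501 CPM per kilobase. Angptl4 (21.9 to 23.7) and Tsc22d3 (21.4 to 23.4) overlapped in BPS and not in DMSO (22.8 to 25.2 and 20.2 to 21.3), and no other neighbours in the order overlapped within a group.

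Deviations from the group means were compared for 15 pairs of the 6 tested genes over 10 libraries. Of these, 1 pair passed Benjamini-Hochberg adjustment over the 15, Fkbp5 with Sgk1, and its relation was inverse (Pearson r = -0.842, permutation p = 0.00212, adjusted p = 0.0318, 100000 permutations, two-sided). The permutations moved deviations across both groups and made no allowance for the group means removed, so these p-values are likely too small. Whether the pair passes with that allowance was not tested. Spearman's rho was -0.782 (permutation p = 0.011, adjusted p = 0.09), and r was -0.741 without the 2 libraries farthest from the median of Fkbp5. Over the 15 pairs r ran from -0.842 to 0.508.

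By the likeness of log2 CPM over the 10 libraries, the gene nearest to Tsc22d3 was Map4k5 (Pearson r = 0.969, Spearman's rho = 0.939), followed by Gng2 (0.951, rho 0.927) and Pid1 (0.939, rho 0.952). Nearest to Klf9 were Dpep1 (r = 0.950), Poglut2 (0.942) and Fosl2 (0.939), and to Fkbp5 Cttn (0.953), Plekha5 (0.942) and Nes (0.942). Nearest to Sgk1 were Bphl (0.956), Cxcl12 (0.914) and Ppp3ca (0.913), to Angptl4 Col23a1 (0.906) and Acad8 (0.897), and to Hsd11b1 Efl1 (0.946), Med1 (0.914) and Pbrm1 (0.893). No target gene was among the 3 nearest of another. Of the genes named here as nearest, Nes, Gng2 and Pid1 rose under BPS (log2 fold changes 0.28, 0.15 and 0.18), and Dpep1, Fosl2 and Col23a1 fell (-0.56, -0.07 and -0.36) by edgeR. These are the highest of 10472 or 10473 values each, over libraries that differ by treatment, and carry no test.

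No gene for the receptor or its helpers passed the test. Of 22 genes for the receptor, its relative the mineralocorticoid receptor, chaperones and coregulators, all 22 were tested and 0 were called by edgeR, DESeq2 or limma-voom. By edgeR 4.88% of all genes were called, and 0 of 22 is near that share. At an unadjusted p under 0.05 by edgeR there was 1 of the 22, against 18.8% of all genes. This was Ep300 (log2 fold change -0.06, SE 0.02), named after its value was seen. The count of called genes was 1 without DMSO replicate 3. The median log2 fold change of the 22 was -0.02. Nr3c1, the glucocorticoid receptor, had 133.9, 111.5, 127.5, 124.1 and 126.6 CPM in DMSO and 138.3, 88.1, 108.6, 121.3 and 128.1 CPM in BPS. The lowest library was BPS replicate 2 and the highest BPS replicate 1, so the BPS libraries spanned the whole DMSO range. The log2 fold change was -0.09 (SE 0.10, edgeR adjusted p 0.685), with a 95% interval of -19.2% to 8.87%. It was -0.00736 without BPS replicate 2 and -0.16 without BPS replicate 1. Divided in the same way by the length of 1 transcript, the receptor stood at 19.7 ± 1.30 CPM per kilobase in DMSO and 18.5 ± 3.06 in BPS (SD, n = 5 each). Nr3c2, the mineralocorticoid receptor, was at 0.402 ± 0.0362 and 0.387 ± 0.0535 CPM (adjusted p = 0.936 by edgeR).

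On the side of hormone supply, H6pd fell. It encodes the hexose-6-phosphate dehydrogenase of the endoplasmic reticulum, which makes the NADPH that the Hsd11b1 enzyme uses as a reductant. The DMSO libraries had 168.4, 166.5, 166.9, 165.0 and 165.1 CPM and the BPS libraries 153.2, 159.7, 150.1, 158.3 and 153.5 CPM. No BPS library reached the lowest DMSO library. The log2 fold change was -0.10 (SE 0.02, edgeR adjusted p 0.0101), and the gene was called in all 18 alternatives (adjusted p up to 0.0489). It was the 1 called gene of 5 tested among 8 for supply and removal of glucocorticoid (20%, against 1.82% of all genes lower). Hsd11b2, which inactivates the hormone, had 5 to 10 counts per library and was not tested.

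**Figure D3:**
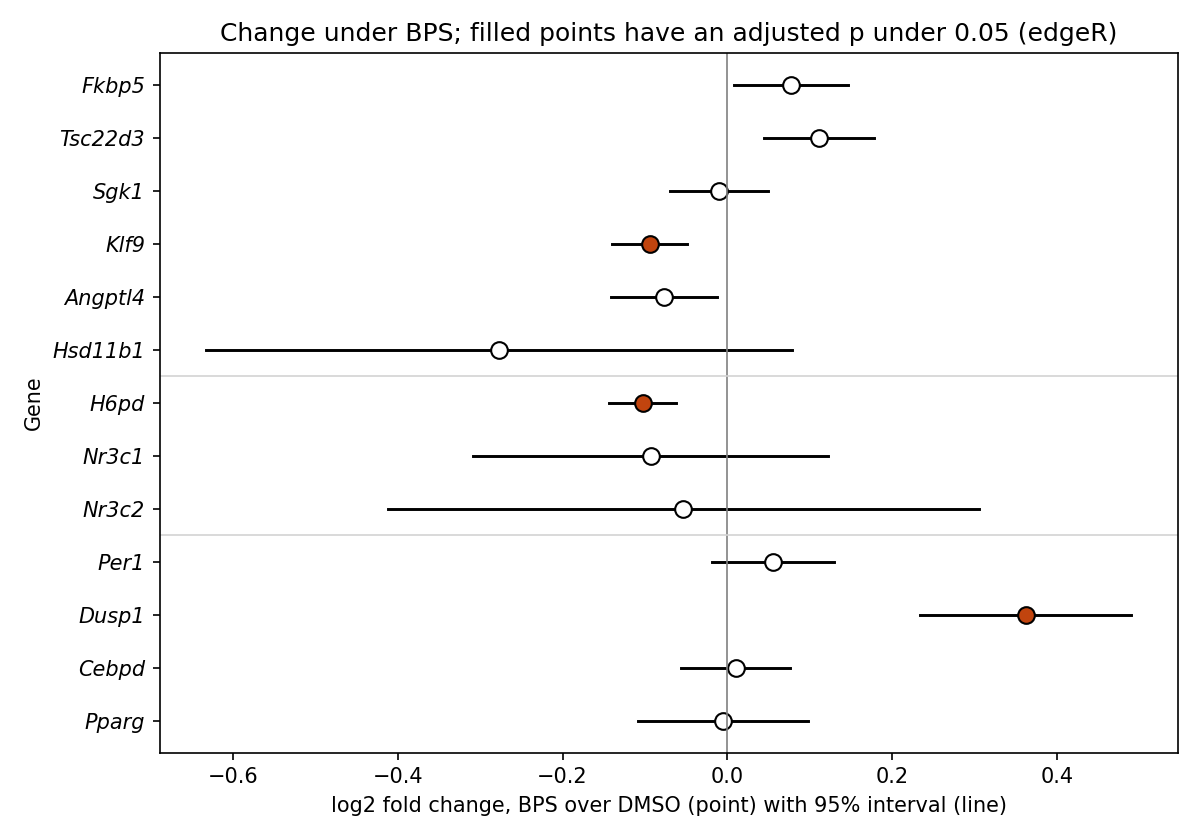
Log2 fold change of BPS over DMSO (horizontal axis) with its 95% interval for the 6 tested target genes, for H6pd and the receptors, and for 4 comparison genes. Klf9, H6pd and Dusp1 are filled because their adjusted p is under 0.05, and the intervals of Sgk1, Hsd11b1, Nr3c1, Nr3c2, Per1, Cebpd and Pparg include 0.

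Other genes known to be induced by glucocorticoids were called in both directions. Of 32, 24 were tested, and 3 rose and 3 fell (25%, against 4.88% of all genes), with a median log2 fold change of 0.02. Dusp1, a phosphatase that switches off MAP kinases, rose from 12.3 ± 0.863 to 15.8 ± 1.02 CPM (SD, n = 5 each), which is 0.36 higher on the log2 scale (SE 0.06, edgeR adjusted p 0.0051). Anxa1, the anti-inflammatory annexin, and Errfi1, a feedback inhibitor of the EGF receptor, named after its value was seen, rose by 0.12 (SE 0.03) and 0.13 (SE 0.03), with adjusted p of 0.0317 and 0.0461 by edgeR. Ddit4, an inhibitor of mTORC1, fell from 173.0 ± 4.66 to 144.9 ± 10.5 CPM (log2 fold change -0.26, SE 0.04, edgeR adjusted p 0.00607). The metallothioneins Mt1 and Mt2, which bind zinc and other metals, fell by 0.15 and 0.16 on the log2 scale (adjusted p = 0.0291 and 0.0383 by edgeR). Per1, a clock gene and an early receptor target, was at 25.06 ± 0.936 and 26.04 ± 0.854 CPM (log2 fold change 0.06, SE 0.03, edgeR adjusted p 0.425). Cebpd, the adipogenic factor that glucocorticoids induce, was at 46.9 ± 2.02 and 47.2 ± 0.862 CPM (log2 fold change 0.01, edgeR adjusted p 0.9, and -0.00422 with 0.963 under scaling by library size alone). Dusp1 and Ddit4 were called in all 18 alternatives, while Anxa1 lost its call in 7, and Mt1 and Mt2 each in 8. Errfi1 was not followed through the alternatives, and its groups overlapped (DMSO up to 296.8 CPM, BPS from 290.8 CPM). The groups overlapped for Mt1 and Mt2 too. The list had 2 calls without DMSO replicate 2, DMSO replicate 3 or BPS replicate 4, and 3 without DMSO replicate 4.

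Genes that the receptor is known to repress also went both ways. Of 19, 14 were tested, and 2 rose and 3 fell (35.7%, against 4.88% of all genes), with a median log2 fold change of 0.00105. Mmp3, the matrix protease stromelysin, fell from 338.2 ± 15.96 to 235.0 ± 8.75 CPM (log2 fold change -0.53, SE 0.03, edgeR adjusted p 1.4e-05). Vcam1, a leukocyte adhesion molecule, fell from 207.7 ± 2.70 to 176.9 ± 3.40 CPM (log2 fold change -0.23, SE 0.02, edgeR adjusted p 2.4e-05). Cxcl5, a neutrophil chemokine at 1.997 ± 0.328 and 1.28 ± 0.233 CPM, fell by 0.64 on the log2 scale (adjusted p = 0.0382 by edgeR) and lost its call in 12 of 18 alternatives. Ptgs2, the inducible cyclooxygenase, rose from 51.1 ± 5.57 to 65.2 ± 5.20 CPM (log2 fold change 0.35, SE 0.07, edgeR adjusted p 0.0202), and Lif, an interleukin-6 family cytokine, rose by 0.26 (SE 0.05, edgeR adjusted p 0.0202). Ptgs2 lost its call in 2 of 18 alternatives and Lif in 4, and without BPS replicate 2 both lost it (adjusted p 0.0524 and 0.0512 by edgeR). The list then had 2 calls, both lower, and it had 3 without DMSO replicate 4 or BPS replicate 4.

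The genes around the target genes were described in the same way. Of 31 close relatives, 28 were tested, 6 rose and 0 fell (21.4%, against 3.06% of all genes higher). These were 4 Krüppel-like factors, Klf2, Klf4, Klf6 and Klf13, with log2 fold changes of 0.18 (SE 0.04), 0.20 (SE 0.03), 0.12 (SE 0.02) and 0.16 (SE 0.03), opposite in sign to Klf9, and the immunophilins Fkbp1a (0.10, SE 0.01) and Fkbp10 (0.08, SE 0.02). Klf2 was named after its value was seen. Fkbp10 lost its call in 3 of 18 alternatives, and the list had 4 calls without BPS replicate 3 or with a replicate block. Without DMSO replicate 1 it had 5 higher and 1 lower. By sign 18 of the 28 were higher and 10 lower, with a median log2 fold change of 0.02. Of the other Krüppel-like factors in this list, Klf10 and Klf5 were lower and Klf3, Klf7 and Klf11 higher, none passing. At an unadjusted p under 0.05, 9 of the 28 passed, against 18.8% of all genes. Of 18 PPAR target genes, 15 were tested and 1 was called (6.67%, near the 4.88% of all genes), Fabp4, the fatty acid binding protein of fat cells, which rose (log2 fold change 0.33, SE 0.07, edgeR adjusted p 0.0154), with 0 lower and a median of -0.03. Pparg itself, the adipogenic receptor, was at 8.76 ± 0.307 and 8.73 ± 0.360 CPM (SD, n = 5 each; edgeR adjusted p 0.979), and its difference changed sign when single libraries were left out. Of 10 substrates and partners of the target genes, all tested, 0 were called by edgeR, DESeq2 or limma-voom and 2 had an unadjusted p under 0.05 by edgeR, near the 18.8% of all genes. These lists were written with results of these data already known, and their counts describe them without a test.

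**Figure D4:**
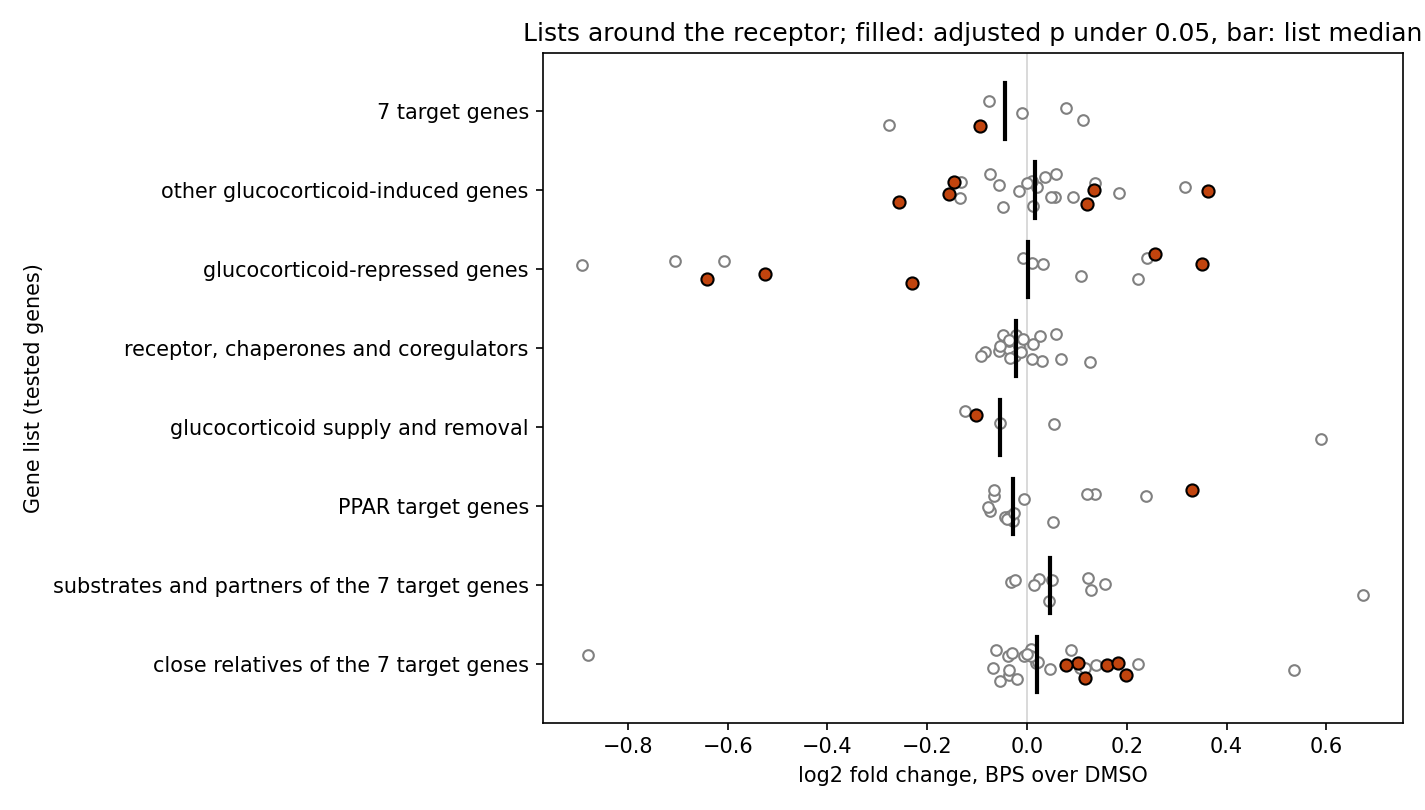
Log2 fold change of BPS over DMSO (horizontal axis) of every tested gene in 8 lists, 1 point per gene, with called genes filled and the list median as a bar. The list medians lie between -0.0551 and 0.0463, and filled points stand on both sides of 0 for induced and for repressed genes.

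**Figure D5:**
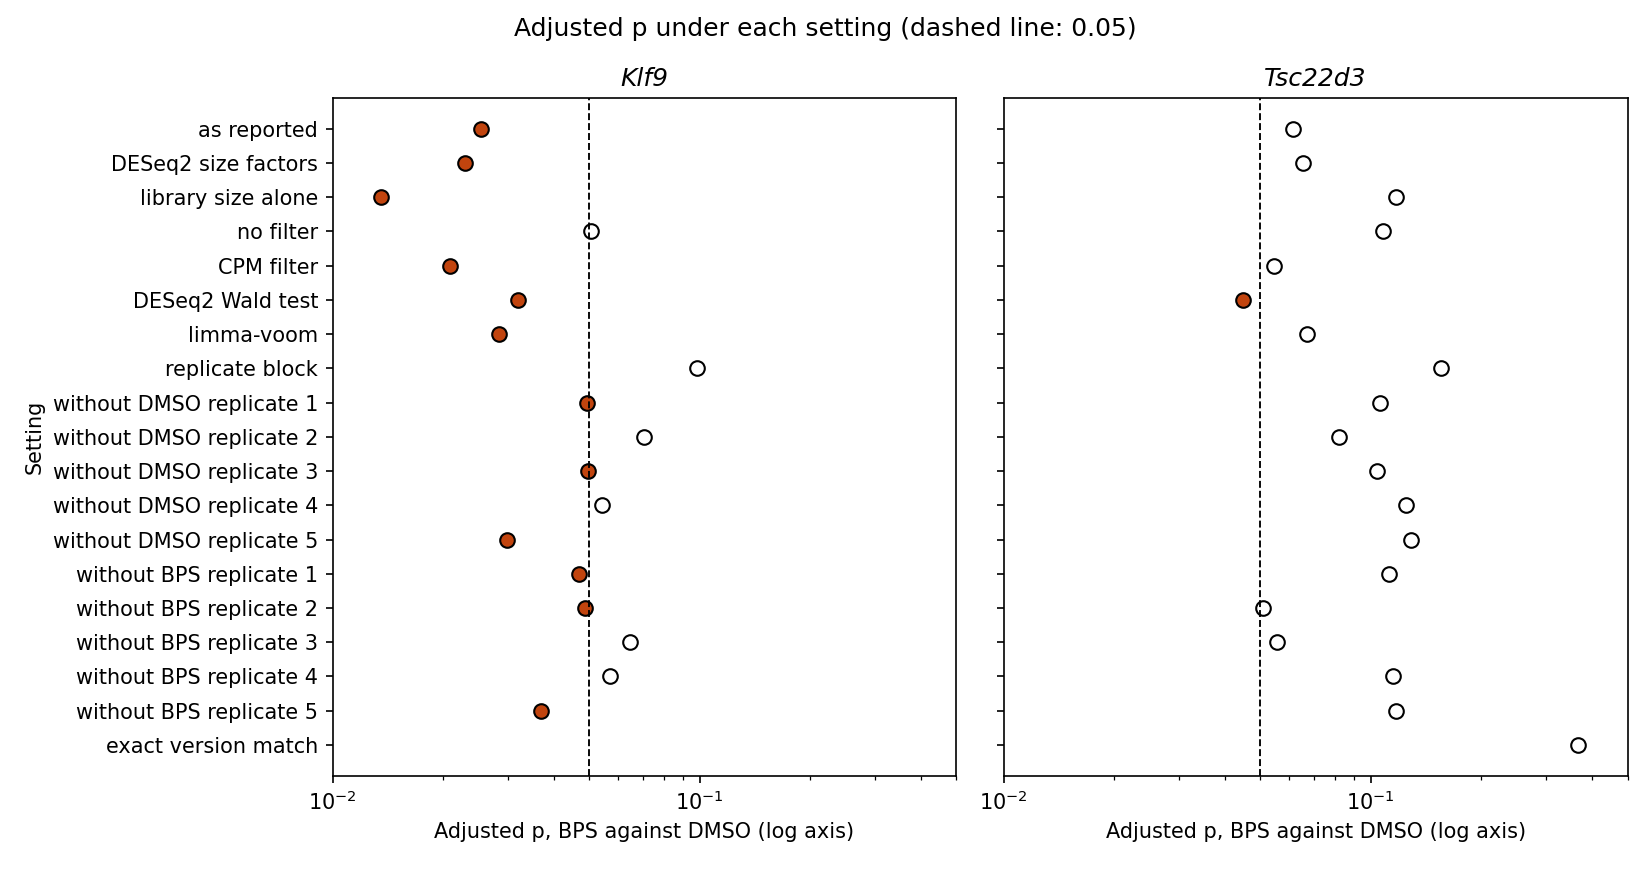
Adjusted p of Klf9 and Tsc22d3 (horizontal log axis, dashed line at 0.05) under each gene-level setting. Klf9 lies between 0.0135 and 0.0984, and Tsc22d3 lies under the line only in the DESeq2 Wald test, at 0.0447.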

How the data were processed

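Total RNA of 10 preadipocyte samples became directional Illumina libraries, per the labels' protocols. The deposited table gives estimated counts per RefSeq transcript, made by the authors with kallisto 0.42.4, per the submitters' processing notes. The index, build and strand setting are not given in the sources used here. Accessions were matched without version to the RefSeq gene table of GRCm38.p6, which placed 86722 of 107384 transcripts in 32903 genes and 93.1% of the counts. The other 6.9% of the counts stayed out. Counts were summed per gene and rounded. Genes were filtered with filterByExpr, scaled by TMM factors of 0.9854 to 1.008, and tested with edgeR's quasi-likelihood test without covariates and with Benjamini-Hochberg adjustment over 14597 genes. The code was tested on simulated data with the same dispersion for every gene and with changes larger than those of the target genes. Its power at the sizes seen in the target genes was not tested. The 95% intervals come from the standard error and the test's degrees of freedom.

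The target genes and all lists were chosen with earlier results of these data known. Genes named are the 7 target genes, 8 others fixed by name, in each list the called genes with the lowest p (at most 5), and the 3 genes of at least 5 mean CPM most like each target gene. One of the latter is not reported here. Alternatives were 2 scalings, 2 filters, DESeq2, limma-voom, a replicate block, exact version matching, unsummed transcripts, and leaving out each library. Promoter windows and transcript lengths came from RefSeq and GENCODE M21 on GRCm38. The tools were edgeR 4.0.16 with limma 3.58.1, in R 4.3.3, then DESeq2 1.42.0, and Python 3.11.15 for sequences and plots.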

Additional observations from a re-analysis of the deposited data

Results flagged for a closer look

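Of 58 groups of 5 values of named genes, 4 had a highest or lowest library set apart by Dixon's test (critical value 0.71). Chance alone marks about 1 group in 20, here 2.9. Per1 was 26.66 CPM in DMSO replicate 1 and 24.21 to 24.89 CPM in the other DMSO libraries. Dusp1 was 17.58 CPM in BPS replicate 2 and 15.11 to 15.67 CPM in the other BPS libraries. Lif was 11.13 CPM in BPS replicate 1, against 11.82 to 12.06 CPM, and Klf13 was 60.06 CPM there, against 64.76 to 65.48 CPM. None of the 7 target genes was among them.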

How the results depend on the processing

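The count of called genes, 712 originally, was 374 with a replicate block and 328 with exact version matching, and 449 to 774 with 1 library omitted (449 without DMSO replicate 2, 462 without BPS replicate 2 or 4, 465 without BPS replicate 3). The count of called target genes, 1 originally, was 0 without a filter, 0 with the block, 0 with exact version matching, where Klf9 could not be tested, and 2 with DESeq2. It was 0 to 1 with 1 library omitted. Deviations of same-numbered libraries from their group means correlated at 0.1, 0.00384, -0.067, 0.072 and -0.078. The BPS library most like DMSO replicates 1 and 4 had the same number, and for DMSO replicates 2, 3 and 5 it did not. These values do not settle whether the replicate numbers pair the libraries, because low correlations can also come from count noise. With exact version matching the induced list had 3 calls in place of 6, the repressed list 3 in place of 5 (3 with the block too) and the PPAR list 0 in place of 1. Leaving out single libraries gave 2 to 5 calls in the induced list, 2 to 5 in the repressed list and 0 to 1 in the receptor list. Log2 fold changes changed sign in 15 of 510 values of named genes. Tsc22d3 was -0.424 with exact version matching, and its transcripts NR_122039.1 and XM_006528500.3 were -0.486 and -0.408 against 0.112 for the gene. Sgk1 was 0.00498 without DMSO replicate 4 and 0.00716 without BPS replicate 2, in a range from -0.0283, and 3 of its transcripts were 0.217, 0.212 and 0.0859. With 1 library omitted Nr3c2 ran from -0.0958 to 0.0281, the latter without BPS replicate 3. Cebpd was -0.00422 with library size alone and ran from -0.0136, without DMSO replicate 1, to 0.0279. Pparg was -0.105 with exact version matching and ran from -0.0184 to 0.0132 with 1 library omitted, above 0 without DMSO replicate 2 (0.00886) or 5 (0.00827) or BPS replicate 3 (0.0132) or 5 (0.00911). Exact matching drops transcripts and tests fewer genes, and the cause of the other shifts was not tested. Hsd11b1, Nr3c2 and Zbtb16 had few counts, and the part of depth and of low expression in this was not tested.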
